A study of Mus musculus with 2 samples.

Results

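N6-methyladenosine (m6A) calls were examined on the mRNAs of 8 genes that write, copy or remove methyl marks on DNA, namely Dnmt1, Uhrf1, Dnmt3a, Dnmt3b, Dnmt3l, Tet1, Tet2 and Tdg. Every unique position and strand of the 17 deposited lists that lay in a same-strand exon of these genes was taken, which gave 195 of the 160430 listed positions and 8 of the 10912 genes with a listed position. The RNA was polyadenylated RNA from mouse 129 embryonic stem cells (mESCs), either wild type (WT) or knockout (KO) for Mettl3, the catalytic subunit of the main m6A methyltransferase. The KO line carried drug resistance cassettes in place of Mettl3 exons 5 to 7 on both alleles, and the number of colonies behind the sequenced RNA was not given in the sources used here. Each condition was read once by nanopore direct RNA sequencing, in which the native RNA strand passes through a pore and a modified base alters the current or the base calls. Of the 10 tools, 7 have a list for each condition (ELIGOS, Epinano, m6Anet, MINES, Nanom6A, Tombo and xPore). Unlike the other 6, xPore needs both libraries to make its calls, and how its calls were divided between a WT list and a KO list is not given in the sources used here. The remaining 3, DiffErr, DRUMMER and Nanocompore, gave a list of sites at which WT differed from KO. With 1 library per condition no difference between WT and KO could be tested. The lists hold positions without read numbers, scores or methylation rates, so an unlisted position cannot be told apart from a position with too few reads.

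DNA methylation in mammals is laid down on cytosines next to guanines by DNMT3A and DNMT3B, and DNMT3L, which lacks catalytic activity, stimulates them. DNMT1 copies the pattern after replication and is brought to hemimethylated DNA by UHRF1. TET enzymes oxidise the methyl group, and TDG, a DNA glycosylase, cuts out the more oxidised bases so that repair can restore an unmodified cytosine. In embryonic stem cells these activities run side by side, and the genome loses or gains methylation with the state of pluripotency.

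The labels were first set against the lists. All 10 embryonic stem cell marker genes examined, including Pou5f1 and Nanog, had WT, KO and comparison positions, with 250 WT or comparison positions and 200 KO positions in all. Of 5 fibroblast markers, Thy1 had 3 WT positions and 1 KO position, Col1a1 had 0 and 3, and the others had none. Of 5 endoderm markers only Sox17 was listed, with 12 WT positions and 0 KO positions, and of 3 ectoderm and neural markers only Tubb3, with 3 and 4. Mettl3 itself had 13 WT or comparison positions and 5 KO positions. Its exons 5 to 7, the replaced segment, held 2 WT positions and 0 KO positions.

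The positions on which the following results turn are shown first, as 25 bases of the GRCm38 genome (mm10) on the transcribed strand, written 5′ to 3′ as DNA. The capitals mark the RRACH 5-mer (R is A or G, and H is A, C or T), and the listed adenosine is the base in its centre. The first 5 are the Tdg positions listed by at least 4 tools in WT or comparison lists. The next 5 are the position of each other gene with the most WT or comparison tools, and the last 2 are KO-only positions of Dnmt3b and Tet2 with the most KO tools, chosen after their values were seen.
Tdg at +475 (chr10:82649181-82649205, plus strand): cgccctccgtGGACTcgaagctgga
Tdg at +493 (chr10:82649199-82649223, plus strand): agctggaggtGGACTcagaaccctc
Tdg at +645 (chr10:82649351-82649375, plus strand): agtagaacctGGACAgttgccaccc
Tdg at +893 (chr10:82649599-82649623, plus strand): tgattactgtGGACTaagtgagcct
Tdg at +1353 (chr10:82650059-82650083, plus strand): ttttttcatgGGACTatgtaaagca
Uhrf1 at +156 (chr17:56322644-56322668, plus strand): gctaccagttGGACTtctgtttttc
Dnmt1 at -341 (chr9:20908671-20908695, minus strand): cgcacactggGAACCggcacaacca
Dnmt3a at +6 (chr12:3907739-3907763, plus strand): tgtgtgtaagGGACAtgggggcaaa
Dnmt3l at -706 (chr10:78052811-78052835, plus strand): ctcacggagtGGACTgctgcagagg
Tet1 at -5231 (chr10:62879116-62879140, minus strand): ttcctgaattGGACCtgaaaacctg
Dnmt3b at +1080 (chr2:153687465-153687489, plus strand): aatggtttttAAACAccttttacct
Tet2 at +2164 (chr3:133464563-133464587, minus strand): ctagtgacgaGGACAgctttggact
The number after each name is the distance in nt of the listed base from the first base of the stop codon, counted on the spliced transcript, with positive values in the 3′ UTR. All of these windows lie within 1 exon.

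Across the 8 genes 143 positions were in WT or comparison lists and 133 were in KO lists. Of the 143, 81 (56.6%, 95% Wilson interval 48.5 to 64.5) were also in a KO list, beside 59.0% of all such positions in the series. A further 52 positions, of the 195, were in KO lists only, and over all genes 19.6% of positions were. Intervals here and below cover counting error only. Tet1 had the most positions (48), followed by Dnmt1 (38), Uhrf1 and Tdg (27 each), Dnmt3b (18), Dnmt3a and Dnmt3l (16 each) and Tet2 (5). In 5 genes there were more WT or comparison positions than KO positions, and in Dnmt3l, Dnmt3b and Tet2 there were more KO positions. Of the 6 genes with positions in both libraries 5 had more WT or comparison positions, and among all such genes 64.5% had more WT or comparison positions than KO positions.

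**Figure D1:**
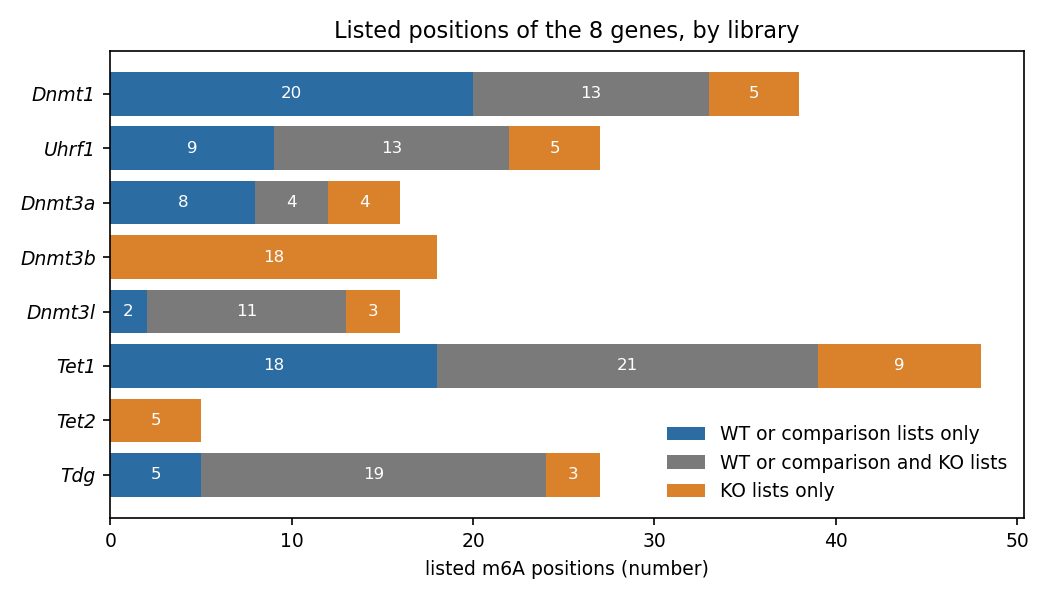
Number of listed positions of each gene (x axis), split into positions in WT or comparison lists only, in both, and in KO lists only. Dnmt3b (18) and Tet2 (5) consist of KO-only positions, whereas 19 of 27 Tdg positions were listed in both.

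Most listings rested on 1 tool. Of the 143 WT or comparison positions, 100 were listed by 1 tool, 43 by at least 2 and 19 by at least 3, and over all genes 34.7% had at least 2 tools and 12.6% at least 3. At least 4 tools were found at 6 positions, 5 in Tdg and 1 in Uhrf1, and 2 positions, both in Tdg, had at least 6 of the 10 tools. Over all genes 5.50% of positions had at least 4 tools and 1.98% had at least 6. In KO, 22 of 133 positions were listed by at least 2 tools, 4 by at least 3 and 0 by at least 4, while the shares over all genes were 23.3%, 4.30% and 0.637%. Tombo, which tests the current signal at each base, was the only tool behind 92 of the 195 positions, and 32.6% of all positions in the series were listed by Tombo only. A single position, in Tdg, was in a comparison list, that of Nanocompore, whereas 2.45% of WT or comparison positions of all genes were in at least 1 of these lists. DiffErr and DRUMMER listed none in the 8 genes.

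The genes differ in length, so the positions were also set against the RRACH 5-mers in their exons, of which there were 1070. All 195 positions had an RRACH 5-mer. WT or comparison lists held 13.4 positions per 100 RRACH in the 8 genes together and KO lists 12.4, beside 17.0 and 14.1 for all genes with a listed position. Uhrf1 had 39.3 per 100 in WT or comparison lists and 32.1 in KO, Dnmt3l 32.5 and 35.0, and Tdg 30.8 and 28.2. The WT and KO intervals of each of these 3 genes overlapped, and the 3 could not be ordered against each other. Against the RRACH of the chosen transcript alone, which for Dnmt3l and Tdg are far fewer than those of all exons, Dnmt3l had 52.0 and 56.0, Tdg 49.0 and 44.9 and Uhrf1 44.0 and 36.0, and their order changed. On the chosen transcripts of all genes the values were 25 and 20.8. Dnmt1 had 31.7 per 100 (interval 23.6 to 41.2) in WT or comparison lists and 17.3 (11.2 to 25.7) in KO, and these intervals also overlapped. Tet1 lay near the values of all genes, with 16.2 and 12.5. Dnmt3a had 5.29 and 3.52, and Tet2, which has more RRACH in its exons than any of the other 7 genes, had 0 and 1.98.

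**Figure D2:**
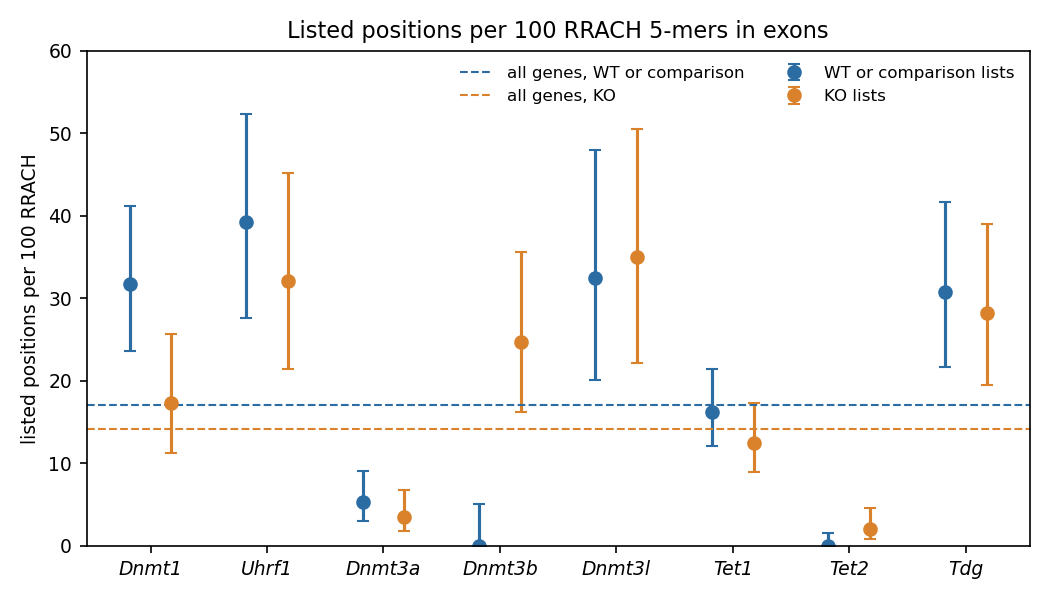
Listed positions per 100 RRACH 5-mers in the exons of each gene (y axis), with points for WT or comparison lists and for KO lists, 95% Wilson intervals as bars, and dashed lines for all genes (17.0 and 14.1). Dnmt3a and Tet2 lie under both lines, and Dnmt3b has 0 in WT and 24.7 in KO.

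Dnmt1, the maintenance methyltransferase, had 33 WT or comparison positions and 18 KO positions, with 13 in both. Tombo listed 21 in WT and 15 in KO, Nanom6A 7 and 1, Epinano 6 and 1, m6Anet 5 and 1, and MINES 2 and 1. Each of these 5 tools therefore listed fewer Dnmt1 positions in KO than in WT, and without Tombo the counts were 15 and 4. Every tool that listed Uhrf1 or Tdg in WT also had fewer there in KO. Without Tombo, Dnmt3a had 9 and 2, Uhrf1 12 and 6, Tet1 22 and 12 and Tdg 15 and 11. By contrast, Dnmt3l had 6 and 6, Dnmt3b 0 and 10 and Tet2 0 and 2. Values by tool over all genes were not set beside these counts. The WT or comparison positions began at nt 332 of the 5367-nt transcript, but the KO positions began at nt 2129. Upstream of this first KO position lay 12 of the 33 WT or comparison positions (36.4%), each listed by 1 tool, and 39 RRACH. The same count was 4 of 12 in Dnmt3a, 2 of 22 in Uhrf1, 1 of 39 in Tet1 and 0 in Dnmt3l and Tdg. Among the 1687 genes with at least 18 KO positions and a WT or comparison position on the chosen transcript, 2 (0.119%), Dnmt1 included, had a share as large. This comparison was made after the Dnmt1 values were seen, and its limit of 18 equals the KO count of Dnmt1. The 0.119% therefore gives a rank and no probability. The position with the most tools was the GAACC at -341, in exon 37 and the second base of its codon, which m6Anet, Epinano and Nanom6A listed for WT and no tool listed for KO. A GGACT at -2, whose 5-mer overlaps the stop codon, was listed by Nanom6A and m6Anet in WT and by m6Anet again in KO.

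Uhrf1 encodes the protein that reads hemimethylated DNA and recruits DNMT1. It had 22 WT or comparison positions and 18 KO positions, 13 of them shared. Tombo listed 17 in WT and 15 in KO, Epinano 9 and 4, Nanom6A 4 and 1, MINES 3 and 2, and xPore 1 and 0. The GGACT at +156 in the 3′ UTR had the most tools, with Tombo, Nanom6A, Epinano and xPore in WT and Tombo and Nanom6A in KO. The AGACT at +884 was listed by the same 3 tools, Tombo, MINES and Epinano, in both libraries. None of the 4 Uhrf1 positions with at least 3 tools in WT was absent from all KO lists, while 26.3% of such positions of all genes and 5 of 19 in the 8 genes were.

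Dnmt3a, a de novo methyltransferase, had 12 WT or comparison positions and 8 KO positions, with 4 in both. Epinano listed 8 in WT and 1 in KO, Tombo 7 and 7, and MINES 4 and 1. The 3 positions with the most tools in WT, in each case Tombo, MINES and Epinano, were all in the 3′ UTR and in GGACH. The GGACA at +6, directly after the stop codon, was in no KO list, the GGACA at +196 was listed by Tombo in KO and the GGACC at +1025 by Tombo and MINES in KO. The window of the first holds a run of 5 identical bases. The annotated 3′ UTR of Dnmt3a is 6696 nt long, and no position was listed in the last 5673 nt of the transcript, which hold 71 RRACH.

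Dnmt3b, the other de novo enzyme, was listed in KO only. Its 18 KO positions came from Tombo (9), Epinano (9), MINES (1) and Nanom6A (1), while all 10 WT or comparison lists held 0. On the chosen transcript 12 were in the coding sequence and 5 in the 3′ UTR, from nt 304 to nt 3803 of 4015, and 1 was in an exon of another transcript. Without Tombo 10 KO positions and 0 WT or comparison positions were left. Of the genes with at least 18 KO positions, 1.39% (25 of 1795) had no WT or comparison position, and of those with at least 18 WT or comparison positions 1.26% had no KO position. More than 1 tool was behind a single position, the AAACA at +1080 with Tombo, Nanom6A and Epinano, and a run of 5 identical bases lies within 10 bases of it. AGACA made up 7 of the 18 and GGACH 1, and among the KO-only positions of all genes their shares were 13.6% and 27.4%. Read numbers of Dnmt3b are not in the lists of either library.

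Dnmt3l, the catalytically inactive partner, had 13 WT or comparison positions and 14 KO positions, of which 11 were shared. Tombo listed 9 in WT and 10 in KO, and all 9 WT positions of Tombo came back in its KO list. Without Tombo the counts were 6 and 6. The m6Anet lists held 3 WT and 4 KO positions, with 1 in common, the GGACT at -706. In WT it had ELIGOS as well, and no Dnmt3l position had more than 2 tools. Another GGACH position of exon 7, the GGACA at -794, was listed by Tombo and MINES in WT and in KO.

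Tet1, which oxidises 5-methylcytosine, had 39 WT or comparison positions and 30 KO positions, with 21 in both. Tombo listed 28 in WT and 25 in KO, Epinano 19 and 6, and MINES 6 and 4. Nanom6A, m6Anet and ELIGOS listed 0 in WT and 1 each in KO. The long exons 2 and 4 carried most positions, with 14 WT and 11 KO positions in exon 2 (1982 nt) and 13 and 10 in exon 4 (2203 nt). The 3 positions with 3 tools in WT, in each case Tombo, MINES and Epinano, were all in exon 2. The GGACC at -5231 was in no KO list, while the other two, GGACA at -5050 and at -4744, were listed by Tombo and MINES in KO. In exon 4 the GGACA at -2404 had more tools in KO (Tombo, MINES and Epinano) than in WT (Tombo and Epinano).

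The Tet1 3′ UTR was almost empty in both libraries. Of its 110 RRACH on the chosen transcript 2 were listed in WT and 2 in KO, beside 37 and 28 of 109 in the coding sequence. No list held a position between nt 6347 and nt 13225, a stretch with 104 RRACH. The 3 positions beyond it were named only on another Tet1 transcript of 13986 nt, whereas 44 of the 48 were named only on the chosen transcript of 14369 nt.

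Tet2, a related dioxygenase, had 5 KO positions and no WT or comparison position. Of the genes with at least 5 KO positions, 6.22% had no WT or comparison position, and of those with at least 5 WT or comparison positions 5.68% had no KO position. Tombo listed 4 and Epinano 2, with 1 listed by both, the GGACA at +2164. The 5 positions spanned 202 nt of the 3′ UTR, from nt 8247 to nt 8449 of 9179. There 3 positions, all GGACH, followed each other at 10 and 11 nt, and the Tet2 window printed above holds the 5-mers of the upstream pair. The coding sequence, with 107 RRACH, had no position in any list.

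Tdg, the glycosylase that removes oxidised cytosines, had 24 WT or comparison positions and 22 KO positions, of which 19 were shared. Although these counts were close, the tools behind them were not. Tombo listed 19 in WT and 17 in KO, Nanom6A 9 and 5, xPore 5 and 3, m6Anet 9 and 1, Epinano 6 and 1, MINES 3 and 2 and ELIGOS 3 and 0. The 5 positions with at least 4 tools in WT or comparison lists were all GGACH positions of the 3′ UTR in exon 10, between +475 and +1353. The remaining GGACH position of the 3′ UTR, a GGACC at +1451, had Tombo alone in WT and Tombo and MINES in KO. The 7 WT positions of the 3′ UTR outside GGACH had at most 3 tools.

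The GGACA at +645 was listed by all 7 of the tools with a WT list, and by Tombo and xPore in KO. The GGACT at +893 was listed by 6 tools, which were Tombo, Nanom6A, m6Anet, ELIGOS and xPore in WT and Nanocompore in the comparison, and by none in KO. The GGACT positions at +475 and +493, 18 nt apart, were each listed by Tombo, Nanom6A, m6Anet, Epinano and xPore in WT. In KO the former was in no list and the latter was in that of xPore. The GGACT at +1353 had Tombo, Nanom6A, m6Anet and ELIGOS in WT and Nanom6A in KO. In contrast, the AAACC at +269 was listed by Tombo, Nanom6A and xPore in WT and by the same 3 tools in KO. Tdg was the only 1 of the 8 genes in a comparison list, and 14.5% of all genes with a listed position, and 34.0% of those with at least 22 WT or comparison positions, were in at least 1.

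**Figure D3:**
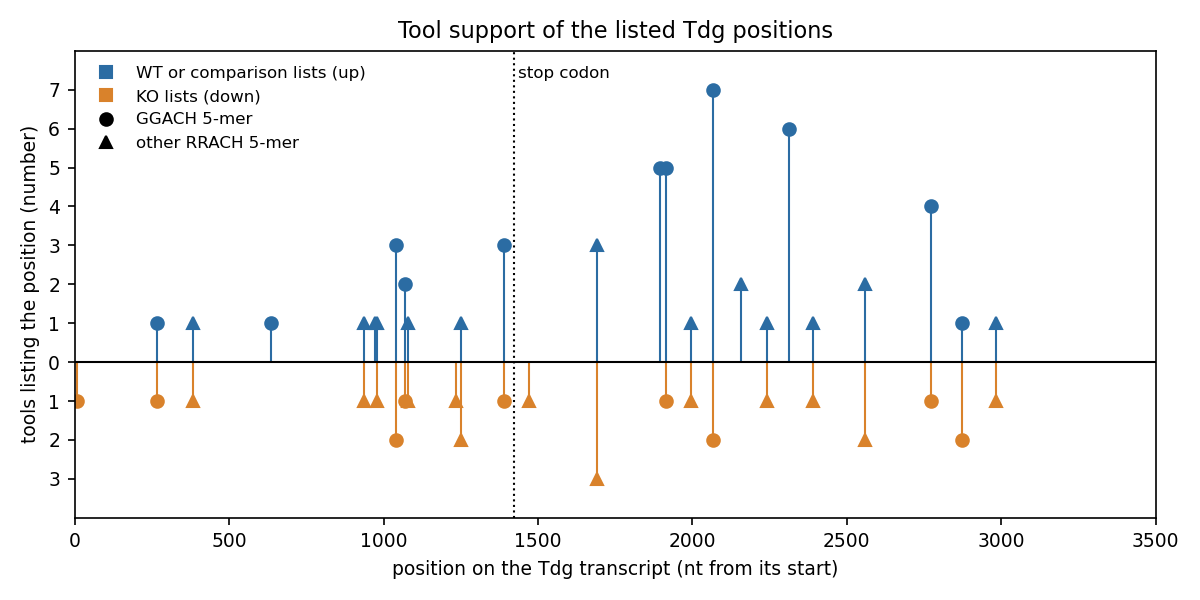
Number of tools listing each Tdg position (y axis, WT or comparison upwards and KO downwards) against its place on the transcript in nt from the start (x axis), with circles for GGACH and triangles for other RRACH 5-mers. The 5 circles with 4 to 7 tools lie beyond the stop codon, and no KO position has more than 3 tools.

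The share of WT positions listed again in KO differed between the tools. Tombo listed 64 of 101 WT positions of the 8 genes again (63.4%, beside 59.7% over all genes), MINES 8 of 19 (42.1%, beside 40.2%) and Epinano 9 of 50, beside 16.5%. For m6Anet it was 3 of 17 (17.6%, beside 34.4%), with the value of all genes inside the interval. For xPore it was 3 of 6, beside 24.9%, but xPore uses both libraries, so this is not a share of separate calls. ELIGOS listed 0 of 4 again, beside 11.5%. Nanom6A listed 7 of 20 again (35.0%, interval 18.1 to 56.7), and over all genes 65.4%. Of its 13 positions not listed again, 6 were in Dnmt1, 3 in Uhrf1 and 4 in Tdg. This share depended on the KO list used, and against the KO lists of any tool it was 65.0%, beside 80.7% over all genes.

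**Figure D4:**
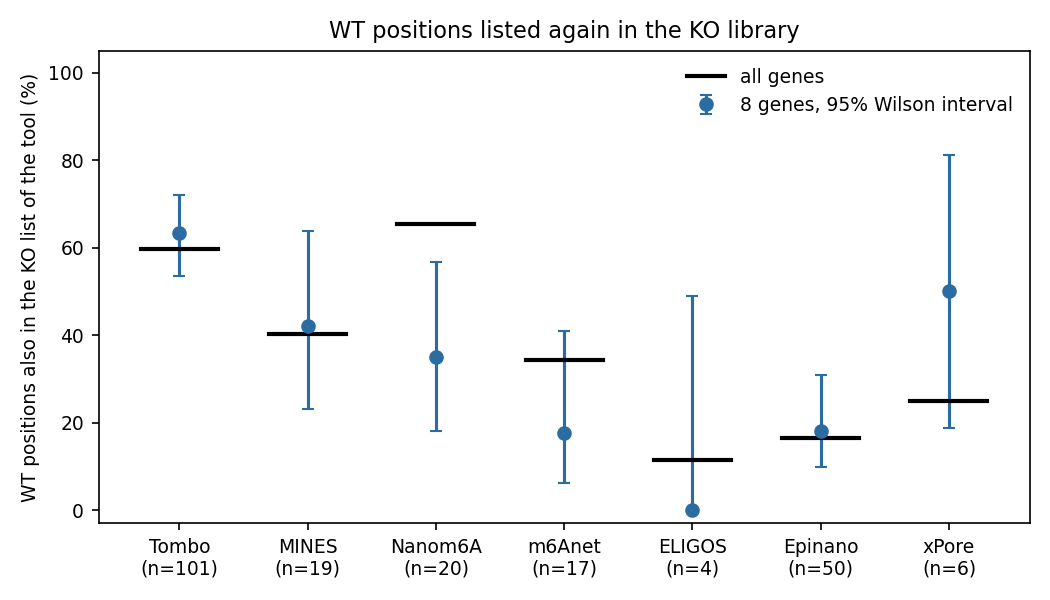
Share of the WT positions of each tool that its own KO list also held (y axis, %), for the 8 genes (points with 95% Wilson intervals, n in the axis labels) and for all genes (black bars). The Nanom6A interval, 18.1 to 56.7%, lies under the value of all genes, 65.4%.

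Where both libraries listed a position, the number of tools was mostly the same. Of the 81 shared positions, 25 had more tools in WT or comparison lists, 6 had more in KO and 50 had the same number, or 30.9%, 7.41% and 61.7%. Over all genes the shares were 26.3%, 8.07% and 65.6%. None of the 81 was in a comparison list, so both numbers count the same 7 tools.

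On the transcripts, the WT or comparison positions lay mostly in coding sequence. There were 115 of 143 (80.4%, interval 73.2 to 86.1) in the coding sequence, 28 (19.6%) in the 3′ UTR and 0 in the 5′ UTR. Over all genes the shares were 56.4% and 40.4%, and of the RRACH of the 8 chosen transcripts 57.2% and 39.8%. In KO the coding share was 72.0%, beside 58.8% over all genes. Pooled shares of RRACH weight genes by their motifs and not by their listed positions, so each gene was also set against its own RRACH. The coding share of WT or comparison positions was 94.9% in Tet1, beside 48.2% of its RRACH, and 58.3% in Dnmt3a, beside 28.3%. These shares of RRACH, and the pooled 57.2%, count long stretches that no list touched and whose depth is unknown. Such stretches held 104 of the 226 RRACH of Tet1, between nt 6347 and nt 13225, and the last 71 of the 138 of Dnmt3a. The coding share lay closer to the share of RRACH in Dnmt1 (32 of 33 positions beside 84 of 85 RRACH), Dnmt3l (92.3% beside 88.0%), Uhrf1 (72.7% beside 74.0%) and Tdg (45.8% beside 38.8%). In the 3′ UTR 13 of 29 RRACH of Tdg were listed in WT or comparison lists, 6 of 11 of Uhrf1, 5 of 98 of Dnmt3a and 2 of 110 of Tet1, and the only 1 of Dnmt1 was listed. Among the 19 positions with at least 3 tools 11 were in the 3′ UTR, 6 of them in Tdg, 3 in Dnmt3a and 2 in Uhrf1. The 3′ UTR share of such positions over all genes was not counted, so these 11 cannot be called particular to the 8 genes.

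**Figure D5:**
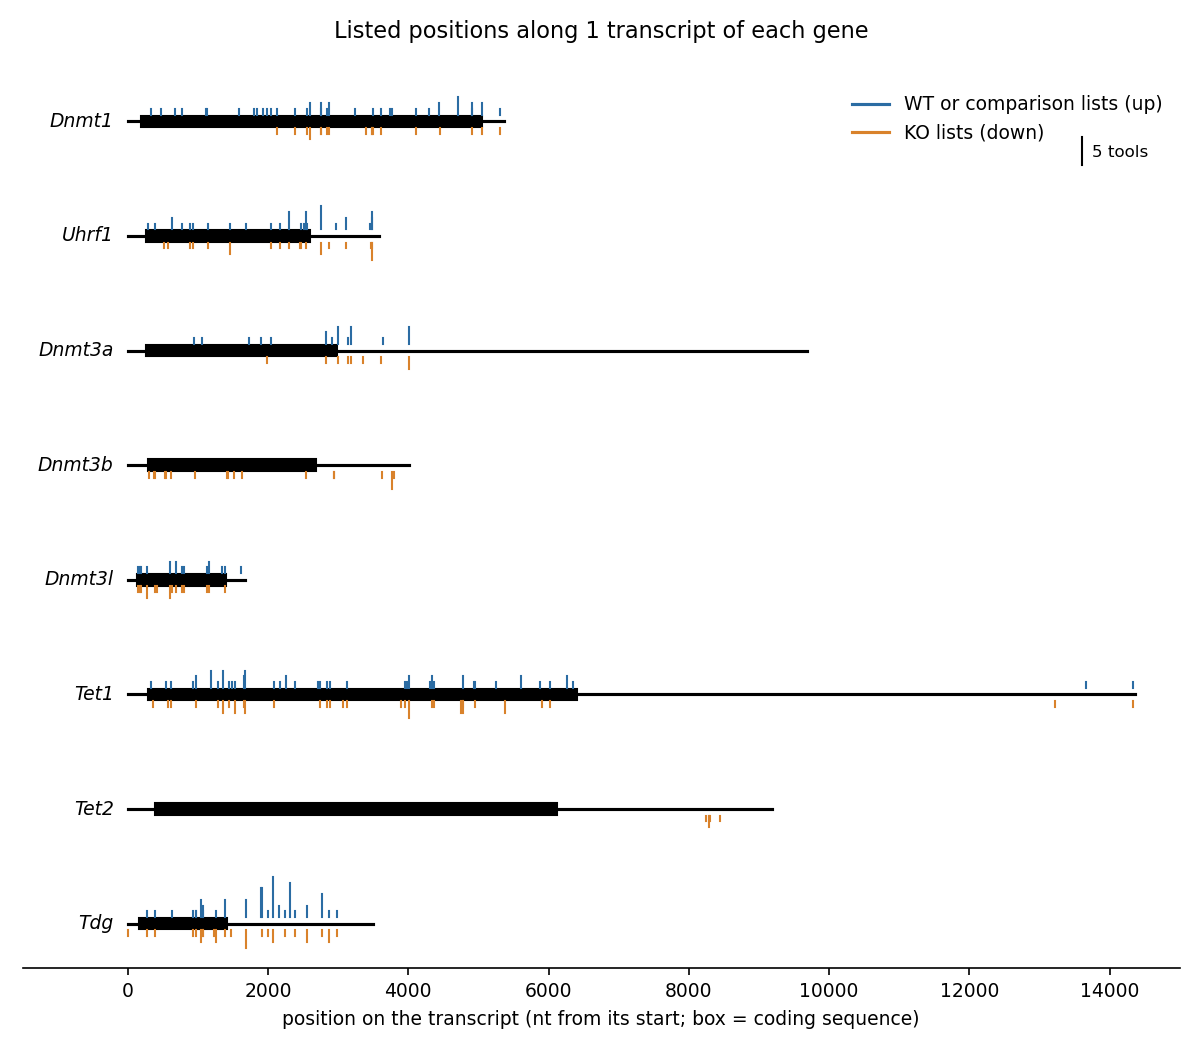
Listed positions along 1 transcript of each gene (x axis, nt from the start), with the coding sequence as a box, ticks upwards for WT or comparison lists and downwards for KO lists, and tick length for the number of tools. Tet1 and Dnmt3a have long 3′ UTRs with few or no ticks, and Dnmt1 KO ticks begin at nt 2129.

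A distance of at most 200 nt from the stop codon was found for 19 of 143 WT or comparison positions (13.3%, interval 8.67 to 19.8) and 12.1% of KO positions, the latter beside 21.1% over all genes. Among the RRACH of the 8 transcripts the share was 5.59%. Over all genes 22.5% of WT or comparison positions and 12.8% of RRACH lay there. By gene, the WT or comparison share was 41.7% in Dnmt3a, beside 10.1% of its RRACH, 22.7% in Uhrf1, beside 7 of 50, 15.4% in Dnmt3l, beside 3 of 25, 9.09% in Dnmt1, beside 3.53%, 8.33% in Tdg, beside 8.16%, and 5.13% in Tet1, beside 1.33%. Within 100 nt of an exon junction lay 84 of 143 (58.7%, interval 50.5 to 66.5) in WT or comparison lists and 54.5% in KO. Beside these stand 37.6% of RRACH in the 8 transcripts and, over all genes, 45.6% of WT or comparison positions and 49.5% of KO positions. Within 5 genes the share of RRACH lay inside the interval of the WT or comparison share. The latter was 32 of 33 positions in Dnmt1, beside 84 of 85 RRACH, 76.9% in Dnmt3l, beside 84.0%, 68.2% in Uhrf1, beside 70.0%, 41.7% in Tdg, beside 36.7%, and 10 of 39 positions in Tet1, beside 34 of 226 RRACH. In Dnmt3a it was 58.3% (interval 32.0 to 80.7), above the 27.5% of its RRACH. That 27.5%, like the 10.1% near the stop codon, counts 138 RRACH, 71 of them after the last listed position, where depth is unknown. Likewise the shares of RRACH in Tet1 count 104 of 226 in a stretch that no list touched. In coding sequence the listed base was the second base of a codon at 59.1% of WT or comparison positions, 62.1% of KO positions and 49.8% of RRACH. Over all genes these shares were 45.9%, 44.9% and 44.9%.

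GGACH made up 21.6% of the RRACH of the 8 transcripts, 38.5% (interval 30.9 to 46.6) of WT or comparison positions and 33.8% (26.3 to 42.2) of KO positions. Over all genes it made up 34.4% and 31.3% of the listed positions, inside both intervals. In the 8 genes it was 44.4% (interval 34.1 to 55.3) of positions in both libraries, 30.6% (20.6 to 43.0) of those in WT or comparison lists only and 17.3% (9.38 to 29.7) of those in KO lists only. Over all genes these 3 shares were 32.9%, 36.5% and 27.4%. Of the positions with at least 3 tools in WT or comparison lists 15 of 19 were GGACH (78.9%), beside 67.5% over all genes. MINES, which reports GGACH and AGACT, takes part in these counts of tools. Within GGACH, GGACA was the 5-mer of 30 of 143 WT or comparison positions (interval 15.1 to 28.4%), beside 14.5% over all genes and 8.26% of the RRACH of the 8 transcripts. GGACT made up 10.5%, beside 11.9% over all genes, and GGACC 6.99%, beside 7.99%.

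The lists named 19 transcripts of the 8 genes. Uhrf1 was named on 4 of its 7 annotated transcripts, Dnmt1 on 3 of 7, Dnmt3l on 3 of 8, Dnmt3a on 2 of 18, Dnmt3b on 2 of 12, Tet1 on 2 of 10, Tdg on 2 of 11 and Tet2 on 1 of 10. For Dnmt1, the transcript with the 4860-nt coding sequence was named for 26 WT or comparison positions and 9 KO positions, and the pair of transcripts with a 4503-nt coding sequence for 8 and 10 (5248 nt) and for 13 and 6 (5870 nt). For Dnmt3b, the chosen transcript of 4015 nt was named for 14 KO positions and another of 4208 nt for 5. Nanom6A names a gene and no transcript, so its positions do not enter these counts.

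A list of 36 other genes that act on DNA methylation, among them methyl-CpG binding proteins, partners of UHRF1 and base excision repair enzymes, held 790 positions. Positions in WT or comparison lists were found in 33 of the 36 genes and positions in KO in the same number, and Tet3, the remaining TET dioxygenase, Neil2, a DNA glycosylase, and Cxxc4 had none. Of the 33, 21 had more WT or comparison than KO positions, 7 more KO positions and 5 equal numbers. None of the 36 was listed in KO only, whereas Dnmt3b and Tet2 were, as were 10.2% of all genes with a listed position. Of 677 WT or comparison positions 68.5% (interval 64.9 to 71.9) were also in a KO list, beside 56.6% in the 8 genes and 59.0% over all. The median gene of the list had 33.6 WT or comparison positions per 100 RRACH and 25.4 KO positions, the median of the 8 genes was 23.5 and 21, and that of all genes was 20 and 15.2. In 9 of the 36 genes a comparison list held a position, and Zfp57, which protects imprinted methylation, had 7 such positions and 1 listed by all 10 tools. Mbd4, a thymine glycosylase like TDG, had 22 WT or comparison positions and 2 KO positions, and Parp1, a repair factor, had 45 and 44.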

How the data were processed

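Polyadenylated RNA of 1 WT and 1 Mettl3 KO library was read by direct RNA sequencing. The authors basecalled the reads with Guppy, aligned them with Minimap2 to a GENCODE mouse transcriptome, ran each tool and converted positions to the genome (mm10 per the labels). The deposited values are positions only. In their work the authors set a cut-off per tool by its fit to antibody-based site sets and required a minimum of reads, larger for m6Anet. The deposited WT lists hold from 5368 (xPore) to 75219 (Tombo) positions, and several lie outside the range of site numbers described at those settings, so not all of them are those sets. The cut-offs behind the lists and the depth at each position are not given in the sources used here, so the precision of a single listing is unknown. In the study's description xPore requires the control library too.

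From these lists unique positions were assigned to genes by same-strand exons of GENCODE M21, a later release on the same build, in which 99.96% of the lines naming a transcript found it. The 5-mers were read from the RefSeq copy of GRCm38. In each gene the coding transcript named in most lines was used for places. All 494 lines of the 8 genes with a transcript position fell on the listed base. Shares carry Wilson intervals (95%, SciPy 1.17.1, Python 3.11.15). No test between conditions was made, since each has 1 library. Genes, lists and the rule for naming positions were chosen with earlier results of these data known. The rule took, per gene, the position with the most WT or comparison tools (ties to fewer KO tools, then genome order), every position in at least 2 comparison lists and every position with at least 4 KO tools. The last 2 criteria matched none. Positions named beyond it were chosen after their values were seen. The scripts were tested on simulated lists. The comparisons were repeated with other definitions of a position, gene, window and tool set.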

Additional observations from a re-analysis of the deposited data

How the results depend on the processing

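Joining positions within 5 bp, assigning genes by the name in the line, keeping RRACH only and leaving out positions in exons of more than 1 gene kept the counts within 1.5 times. Counting lines gave 523 in any list, 311 in WT or comparison and 212 in KO. Without Tombo, 7.38 WT or comparison and 4.95 KO positions per 100 RRACH were left. The counts without Tombo, chosen after seeing the data, were 79 WT or comparison and 53 KO positions, and Dnmt3l had equal numbers. Leaving out Tet1, also chosen after seeing the data, kept the counts within 1.5 times and the shares near the stop codon within their intervals. With the RRACH of the chosen transcripts alone, the values were 18.2 and 16.8, beside 25 and 20.8 over all genes. Without MINES, at least 5 of 9 tools listed 4 positions, and without xPore, added later, 2. Lines could not give this count, since each line comes from 1 tool.

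Counting the KO list of any tool, 78.9% of WT positions were listed again for MINES, 65.0% for Nanom6A, 47.1% for m6Anet, 75.0% for ELIGOS and 50% for Epinano, beside 68.9%, 80.7%, 64.1%, 67.6% and 43.7% over all genes. Near the stop codon the WT or comparison share was 6.99% within 100 nt and 21.7% within 400 nt, and the KO share 4.55% and 22%, beside 12.5%, 38.6%, 11.4% and 37.1% over all genes. Without Tombo and Nanom6A the shares within 200 nt were 19.7% in WT or comparison lists and 11.1% in KO. Both lay inside the intervals of all tools, and this setting was not counted over all genes. Within 50 nt of a junction the shares were 41.3% and 37.1%, beside 32.3% and 35.4%. No paired analysis was possible because each condition has 1 library, and no library could be left out. Depth is unknown, which limits every count of unlisted positions.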
